A study of Rattus norvegicus with 3 samples.

Results

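Expression of 10 genes that mark successive stages of the oligodendrocyte lineage was followed in the motor cortex of 3 rats. They were taken by symbol from the 30957 genes of each deposited table, and all 10 were found, on 1 row each. Pdgfra and Cspg4 stand for precursors, Gpr17, Bcas1 and Enpp6 for committed and newly forming oligodendrocytes, and Olig1, Olig2 and Sox10 for the whole lineage. Myrf and Tnfaip6 complete the set.

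The animals were male Sprague-Dawley rats, numbered 19, 35 and 70, and all had undergone cerebral ischemia followed by reperfusion, that is, an interruption of blood flow to the brain and its return. They form 1 group with no comparison group used here, and all carry a time label of 8 weeks, which may be an age or an interval after the operation. The method of occlusion, the side and the size of the lesion are not given in the sources used here. Messenger RNA was sequenced, and expression is given as FPKM, the fragments of a gene per kilobase of its length and per 1000000 fragments. Because there is 1 group, the spread between animals is what these data can describe, and no test of an effect of ischemia can be made.

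Oligodendrocyte precursors are dividing cells spread through the adult brain that depend on platelet-derived growth factor, and they supply myelinating cells throughout life. On leaving the cell cycle they pass through a short premyelinating stage before they produce the proteins of compact myelin. After injury precursors divide and migrate, and differentiation can stall at an intermediate stage. In bulk tissue, fewer cells of a type and less RNA per cell cannot be told apart.

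Levels of the markers of other cell types differed widely between the animals. The 8 neuronal markers had a summed level of 1426, 59.1 and 2046 FPKM in rats 19, 35 and 70. All 8 were lowest in rat 35, as were 36.5% of all genes at or above 1 FPKM on average. All 8 genes of microglia and macrophages were highest in rat 35 (45.4% of all genes), with sums of 629, 1943 and 498 FPKM. Depth was similar, since the steps of the low FPKM values correspond to 15.6, 16.5 and 16.0 fragments for each FPKM on a gene of 1 kb. In all, 6008 of 14134 genes at or above 1 FPKM on average (42.5%) were more than 2-fold apart between the highest and the lowest rat, on the scale of log2(FPKM + 1).

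The members of the set were not spread over the rats in 1 common direction. Of the 10 genes, 6 were more than 2-fold apart by the same measure, namely Pdgfra, Bcas1, Enpp6, Sox10, Myrf and Olig1, a share that is to be read against the 42.5% of all genes. The median range, the highest minus the lowest rat in log2(FPKM + 1), was 1.08 over the members and 0.86 over all genes. In all, 7 members were lowest in rat 35, as were 36.5% of all genes, and only Pdgfra and Cspg4 were highest there, as were 45.4%. There were 4 members highest in rat 19 (24.8% of all genes) and 4 in rat 70 (29.8%). Rat 70 was lowest for Cspg4 and Tnfaip6, and rat 19 for Pdgfra, against 44.2% and 19.3% of all genes.

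**Figure D1:**
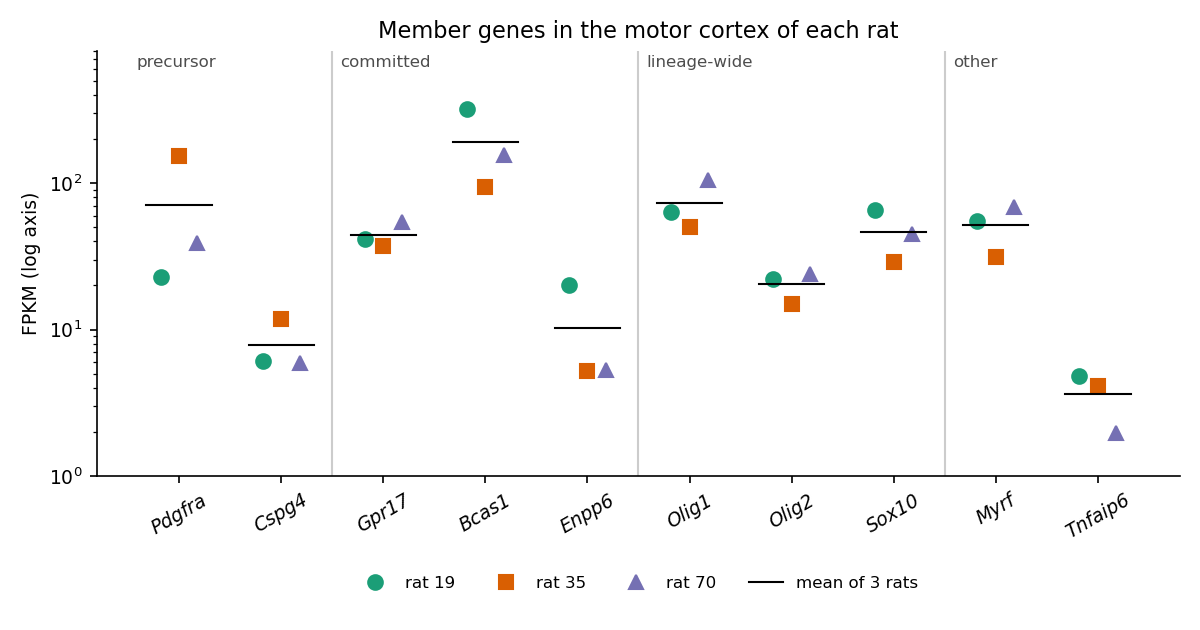
FPKM (log axis) of each member gene in rats 19, 35 and 70, grouped by stage, with the mean of 3 rats as a black line. Pdgfra and Cspg4 are highest in rat 35, whereas the committed and lineage-wide genes are lowest in it.

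Both precursor genes were highest in rat 35, and the other 2 rats were closer to each other. Their upstream sequences are shown with that of Enpp6, a committed gene that was higher in rat 19 than in rat 35, to set both stages side by side. Each is the 250 bases before the RefSeq gene start in build GRCr8, for Pdgfra chr14:33408517-33408766 on the minus strand, for Cspg4 chr8:66160692-66160941 on the plus strand and for Enpp6 chr16:52026729-52026978 on the minus strand. Capitals mark matches to the E-box CANNTG, the letters bound by basic helix-loop-helix factors such as Olig1 and Olig2, and to the SOX-type letters ACAAAG and AACAAT, searched on both strands.
Pdgfra: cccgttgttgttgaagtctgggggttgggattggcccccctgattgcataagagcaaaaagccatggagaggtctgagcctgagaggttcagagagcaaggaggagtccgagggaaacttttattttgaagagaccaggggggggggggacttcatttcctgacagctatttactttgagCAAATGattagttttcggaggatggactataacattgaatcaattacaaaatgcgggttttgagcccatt
Cspg4: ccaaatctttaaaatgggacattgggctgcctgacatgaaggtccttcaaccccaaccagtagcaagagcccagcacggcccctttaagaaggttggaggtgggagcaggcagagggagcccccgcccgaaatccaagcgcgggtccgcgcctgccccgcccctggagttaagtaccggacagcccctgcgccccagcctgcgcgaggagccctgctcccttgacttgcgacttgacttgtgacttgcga
Enpp6: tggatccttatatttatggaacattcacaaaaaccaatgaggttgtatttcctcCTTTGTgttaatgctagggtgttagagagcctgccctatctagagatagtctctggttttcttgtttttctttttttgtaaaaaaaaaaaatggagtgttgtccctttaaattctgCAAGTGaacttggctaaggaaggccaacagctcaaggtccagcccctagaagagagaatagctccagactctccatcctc
Pdgfra held 1 E-box, Enpp6 held 1 E-box and 1 ACAAAG on the reverse strand, and Cspg4 held none of the 3 motifs. Of all 33469 RefSeq windows of this length, 65.5% held the E-box, 16.3% ACAAAG and 10.3% AACAAT. A match describes letters and not binding, and nothing follows from its absence in so short a window. RefSeq windows were found for 6 of the 10 members, and E-boxes stood in 3 of these.

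Pdgfra encodes the alpha receptor for platelet-derived growth factor, through which precursors receive their main signal to divide (chromosome 14, 35527927 to 35581031, minus strand, build Rnor 6.0, as are all further gene positions). It was at 22.9 FPKM in rat 19, 152 in rat 35 and 39.1 in rat 70 (71.3 ± 70.3, SD, n = 3). Rat 35 thus stood 6.64-fold above rat 19 and 3.89-fold above rat 70. The range of 2.68 on the log2(FPKM + 1) scale was wider than that of 93.3% of all genes, and without rat 35 it was 0.75. Within each rat, Pdgfra ranked above 73.9%, 97.1% and 85.8% of the genes tested.

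Cspg4 encodes NG2, a membrane proteoglycan of precursors and also of pericytes (chromosome 8, 61532465 to 61567510, plus strand). It was at 6.06, 11.7 and 5.88 FPKM in rats 19, 35 and 70 (7.89 ± 3.33, SD, n = 3). Rats 19 and 70 could not be separated, since their 95% Poisson intervals for counting error, 5.22 to 7.002 and 5.06 to 6.79 FPKM, overlapped. Rat 35 stood 1.94-fold above rat 19, and without it the range of 0.89 on the log2 scale was 0.04. Pdgfra was therefore 6.64-fold apart between rats 35 and 19 where its fellow precursor gene was less than 2-fold apart.

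Pdgfra is also a gene of fibroblasts and Cspg4 one of mural cells of vessels, and markers of both were highest in the same rat. Of 8 fibroblast markers, 7 reached a mean FPKM of 1. All 7 were highest in rat 35 (45.4% of all genes), with summed levels of 314, 2912 and 253 FPKM over the list. Among them, the collagen gene Col3a1 was at 81.7, 1086 and 68.3 FPKM and Lum, which encodes lumican, at 36.4, 494 and 38.2, while Col1a2 was listed at 0 in every rat. All 10 markers of pericytes and smooth muscle were highest in rat 35 too (45.4% of all genes). Their sums were 153, 394 and 110 FPKM, with none at 0. Pdgfrb, the beta receptor of pericytes and fibroblasts, was at 21.8, 102 and 18.4 FPKM. The part of these cells in the levels of Pdgfra and Cspg4 was not tested.

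Genes with the pattern most like that of Pdgfra were sought among 9700 others with a mean FPKM of 5 or more, by the Euclidean distance of centred log2(FPKM + 1) over 3 rats. Ccdc80 was nearest (9.82, 61.9 and 15.0 FPKM, distance 0.13), followed by Tmem252 (3.12, 25.9 and 5.01, distance 0.18) and Fbn1, which encodes the matrix protein fibrillin 1 (5.61, 49.1 and 10.5, distance 0.18). Only 4 genes lay within a distance of 0.2. The same search drew 501 genes for Gpr17 and 419 for Olig2, nearest Abcf2 (15.0, 10.02 and 16.3 FPKM). With 3 animals such a likeness is weak, and for the latter pair many genes share it.

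Further precursor markers did not follow Pdgfra. Of 16 listed, 15 were matched and 12 reached a mean FPKM of 1, of which 3 were highest in rat 35 and 6 were lowest there (45.4% and 36.5% of all genes). Their median deviation from the gene's mean over the rats was 0.17, -0.24 and 0.10 in log2(FPKM + 1) for rats 19, 35 and 70. Of the 12, 5 were more than 2-fold apart, as were 42.5% of all genes.

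Cspg5, the most abundant of these, encodes neuroglycan C, which neurons also make, and was at 71.2, 23.1 and 48.2 FPKM. Ptprz1, a receptor phosphatase gene of precursors and astrocytes, was at 51.9, 31.3 and 57.3 FPKM, and Cacng4, an AMPA receptor auxiliary subunit gene, at 22.8, 9.95 and 15.7. C1ql1, a secreted C1q-like protein gene, was at 28.3, 11.1 and 14.0 FPKM. All 4 were thus lowest in the animal with the highest Pdgfra. Vcan, the gene of the matrix proteoglycan versican, had the opposite order, with 14.6, 25.1 and 8.80 FPKM, and it is expressed by fibroblasts as well. Neu4 was listed at 0 in every rat.

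Ligands of the receptor varied less than the receptor itself. Pdgfa, the main precursor mitogen, was at 10.4, 9.16 and 7.80 FPKM (9.13 ± 1.31, SD, n = 3), with no 2-fold difference between rats. Pdgfb was at 14.0, 17.6 and 9.30 FPKM and Pdgfc at 10.1, 4.59 and 3.55. Genes of dividing cells were all highest in rat 35 and lowest in rat 70, for 7 of 7 genes (45.4% and 44.2% of all genes). Mki67, a nuclear protein gene of cycling cells, was at 5.61, 15.7 and 1.41 FPKM and Top2a, a topoisomerase gene of replicating cells, at 8.26, 23.1 and 2.25. Which cells divided is not resolved in bulk RNA, and microglial genes were highest in the same rat.

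Committed-stage genes were highest in rat 19 for Bcas1 and Enpp6 but not for Gpr17, and all 3 were lowest in rat 35. Bcas1 encodes a protein of early myelinating oligodendrocytes and was the most abundant member in rats 19 and 70 (chromosome 3, 167957994 to 168033457, minus strand). It was at 318, 94.7 and 157 FPKM (189.7 ± 115, SD, n = 3), so that rat 19 stood 3.36-fold above rat 35 and 2.03-fold above rat 70. Its range was 1.74 on the log2 scale, above that of 80.6% of all genes, and 0.72 without rat 19. No pair of rats had overlapping counting intervals.

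Enpp6 encodes a choline-specific phosphodiesterase and marks newly forming oligodendrocytes (chromosome 16, 48315914 to 48437242, minus strand). It was at 20.1, 5.25 and 5.32 FPKM (10.2 ± 8.57, SD, n = 3). Rat 19 stood alone, 3.83-fold above rat 35 and 3.79-fold above rat 70, and without it the range on the log2 scale went from 1.76 to 0.01. Rats 35 and 70 could not be separated, with counting intervals of 4.59 to 5.99 and 4.64 to 6.06 FPKM. The values rest on at least 815, 225 and 222 fragments.

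Gpr17 encodes a G protein-coupled receptor that is switched on in committed precursors and off again before myelination (chromosome 18, 24734330 to 24735349, minus strand). Its levels of 41.3, 37.0 and 54.3 FPKM (44.2 ± 9.01, SD, n = 3) were the closest together of all members, with a range of 0.54 on the log2 scale that exceeded that of 29.8% of genes. Rats 19 and 35 overlapped in counting error, at 38.2 to 44.6 and 34.1 to 40.0 FPKM. The 3 genes of this stage therefore did not share an order of the rats: Enpp6 was 3.79-fold higher in rat 19 than in rat 70, and Gpr17 was 1.31-fold higher in rat 70 than in rat 19.

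Most other genes of the committed stage shared with Bcas1 and Enpp6 the highest level in rat 19, but not the whole order of rats. Of 15 listed, 14 were matched and 13 reached a mean FPKM of 1, and 11 of these 13 were highest in rat 19, as were 24.8% of all genes. Of the 11, 9 were more than 2-fold apart, as were 42.5% of all genes. The lowest rat was 35 for 6 of the 13 and 70 for 7, against 36.5% and 44.2% of all genes. The median deviations were 0.65, -0.57 and -0.43 in log2(FPKM + 1).

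Sirt2, which encodes a deacetylase abundant in oligodendrocytes, was at 449, 142 and 161 FPKM. Bmp4, a secreted factor gene made by newly committed cells, was at 26.3, 5.91 and 4.72 FPKM, and Kif19, a kinesin gene, at 11.7, 2.87 and 2.33. As for Enpp6, rats 35 and 70 were close to each other in these 3 genes and rat 19 stood apart. Other genes of the list did not have this pattern. Tns3 was at 66.8, 52.6 and 41.1 FPKM, Rras2 at 17.6, 15.0 and 6.14 and Cnksr3 at 16.0, 13.0 and 7.59, with rat 70 below rat 35. Zfp488 was at 11.2, 3.49 and 7.46 FPKM, with rat 35 below rat 70. Fyn, a kinase gene active at the onset of myelination and also in neurons, was at 74.7, 29.5 and 43.1 FPKM. Not highest in rat 19 were Tcf7l2, a transcription factor gene of the premyelinating stage (18.95, 6.85 and 27.3 FPKM), and Lims2 (3.61, 7.70 and 1.48). Tmem163, a zinc transporter gene also used by neurons, had the widest range of the list, at 29.7, 1.72 and 19.9 FPKM. Astrocyte markers were highest in rat 19 for 4 of 7 genes, with sums of 3032, 1001 and 1875 FPKM, and their part in these values was not tested.

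**Figure D2:**
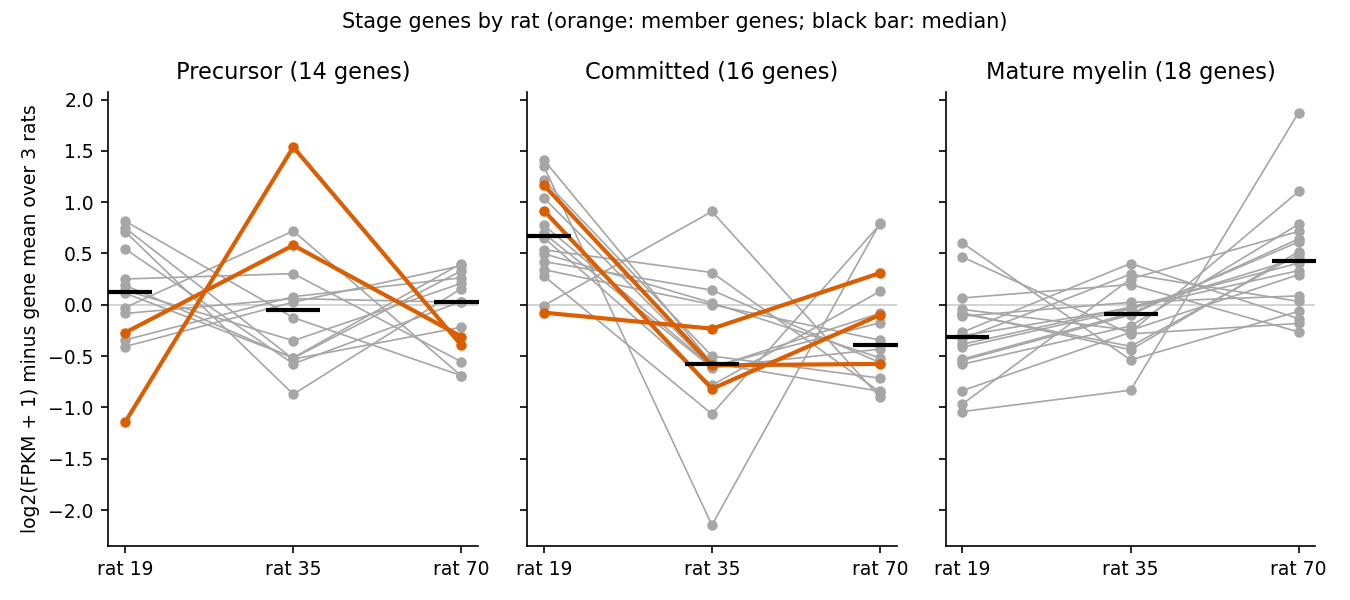
Deviation of log2(FPKM + 1) from the gene's mean over 3 rats for precursor, committed and mature myelin genes at a mean FPKM of 1 or more, with 1 line per gene, member genes in orange and the median as a black bar. The medians of committed and of mature myelin genes are highest in rats 19 and 70, with exceptions such as Gpr17, Tcf7l2 and Lims2 among the former and 5 of the 18 myelin genes, and 3 of the 12 further precursor genes peak in rat 35 with Pdgfra and Cspg4.

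Lineage-wide transcription factor genes were lowest in rat 35 for 3 of 3 members and had ranges of 0.66 to 1.16 on the log2 scale. Olig2, required for the specification of the lineage, was at 22.0, 14.9 and 24.1 FPKM (20.3 ± 4.82, SD, n = 3; chromosome 11, 31389514 to 31392890, plus strand). Its range of 0.66 on the log2 scale was wider than that of 38.2% of genes, and rats 19 and 70 overlapped in counting error. Olig1, its neighbour on the chromosome (31428358 to 31430517, plus strand), which acts later in differentiation and repair, was at 63.4, 50.0 and 104 FPKM (72.6 ± 28.3, SD, n = 3). Olig1 exceeded Olig2 in all 3 rats, by 2.89-fold, 3.36-fold and 4.33-fold.

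Sox10, the factor that keeps oligodendrocyte identity and activates myelin genes, was at 65.5, 28.7 and 45.0 FPKM (46.4 ± 18.4, SD, n = 3; chromosome 7, 120393254 to 120403523, minus strand). Here rat 19 was highest and stood 2.28-fold above rat 35, whereas Olig1 and Olig2 were highest in rat 70. The summed level of Olig1, Olig2 and Sox10 was 151, 93.6 and 173 FPKM. Rat 35 held the least of all 3 genes, at 62.0% of the sum of rat 19 and 53.9% of that of rat 70.

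Of 7 further factor genes of the lineage, 6 were highest in rat 70, as were 29.8% of all genes. Zeb2 was at 28.5, 37.5 and 41.3 FPKM, and Sox8, a close relative of Sox10, at 12.9, 10.4 and 11.5. Of the 7, 2 were more than 2-fold apart, as were 42.5% of all genes. These were Sox5, which restrains differentiation (1.78, 0.47 and 2.49 FPKM), and St18 (2.67, 1.31 and 3.93). Both were lowest in rat 35.

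Myrf encodes the membrane-bound factor that is cleaved to drive the myelin programme once cells leave the precursor state (chromosome 1, 226260558 to 226292480, minus strand). It was at 55.3, 31.4 and 69.0 FPKM (51.9 ± 19.1, SD, n = 3), with the same order of rats as Olig1, Olig2 and Gpr17. Rat 70 stood 2.20-fold above rat 35 and 1.25-fold above rat 19. Without rat 35, the range on the log2 scale went from 1.11 to 0.31.

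Mature myelin genes were highest in rat 70 for 13 of 18, as were 29.8% of all genes, and lowest in rat 19 for 12, as were 19.3%. Their median deviations were -0.32, -0.09 and 0.43 in log2(FPKM + 1). Mobp, a structural gene of compact myelin, was at 80.9, 120 and 313 FPKM, Mal, a raft protein gene, at 89.9, 117 and 233, and Hapln2, a link protein gene of the node of Ranvier, at 10.3, 12.1 and 84.1. Thus rat 35, lowest for Sox10 and Myrf, was not lowest for most myelin genes, being lowest in 5 of 18 (36.5% of all genes). Cnp, a myelin enzyme gene, and Ugt8, of galactolipid synthesis, were highest in rat 19, at 509, 303 and 325 FPKM and at 76.8, 34.3 and 48.0.

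Genes that hold back differentiation had no common order. Of 8 listed, 4 were highest in rat 19 (24.8% of all genes), 2 in rat 35 (45.4%) and 2 in rat 70 (29.8%). Of the 8, 4 were more than 2-fold apart, as were 42.5% of all genes. Hes5, a Notch target gene, was at 11.5, 1.64 and 1.05 FPKM, and Id4, an inhibitor of basic helix-loop-helix factors, at 23.6, 4.75 and 19.8. Lingo1 was at 51.6, 2.79 and 50.4 FPKM and Gpr37, a receptor gene of maturing oligodendrocytes, at 23.0, 25.6 and 69.5. Lingo1 is strongly expressed by neurons, whose markers were lowest in rat 35, and their part in its level was not tested.

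Tnfaip6 encodes TSG-6, a secreted protein that binds hyaluronan and transfers heavy chains of inter-alpha-inhibitor onto it (chromosome 3, 37545238 to 37564699, plus strand). It was the least abundant member, at 4.86, 4.10 and 1.97 FPKM (3.64 ± 1.499, SD, n = 3). Rats 19 and 35 overlapped in counting error, at 3.96 to 5.89 and 3.31 to 5.03 FPKM, while rat 70 lay lower at 1.42 to 2.65. The values rest on at least 103, 92 and 43 fragments. Its order of rats was not shared with any other member.

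Of 13 genes of hyaluronan synthesis, binding and inflammation listed with Tnfaip6, 7 reached a mean FPKM of 1, and 5 of these were highest in rat 35 (45.4% of all genes). The hyaluronan receptor gene Cd44 was at 23.8, 35.3 and 7.44 FPKM, lowest in rat 70 as Tnfaip6 was. The heavy chain gene Itih3 was at 159, 4.77 and 81.5 FPKM and Itih5 at 14.9, 76.6 and 21.4, in opposite directions. The synthase gene Has2 was at 0.55, 0.63 and 0.57 FPKM, below the minimum.

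**Figure D3:**
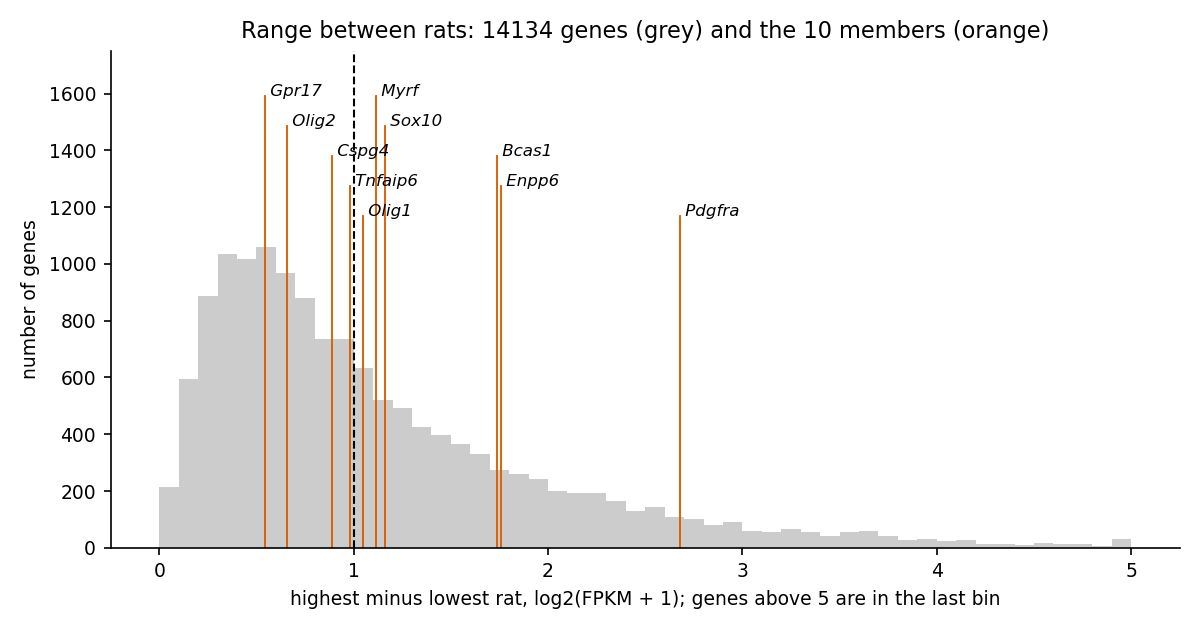
Distribution of the range between rats, the highest minus the lowest log2(FPKM + 1), over 14134 genes (grey), with the 10 members as orange lines and a dashed line at 1. Pdgfra lies in the upper tail at 2.68 and Gpr17 at 0.54 is the least spread member.

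The stage comparison was summarised as the mean log2(FPKM + 1) of Pdgfra and Cspg4 minus that of Gpr17, Bcas1 and Enpp6. It was -2.34 in rat 19, 0.64 in rat 35 and -1.20 in rat 70 (-0.97 ± 1.504, SD, n = 3), above 0 in rat 35 and below 0 in the other rats. The positive value rests on Pdgfra. With Cspg4 alone as the precursor gene the differences were -3.22, -1.15 and -2.47, still highest in rat 35 but negative in all 3 rats.

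Single gene pairs differed in how they followed this order. Pdgfra was at 0.55, 4.11 and 0.72 times the FPKM of Gpr17 in rats 19, 35 and 70, and at 0.07, 1.60 and 0.25 times that of Bcas1. Against Enpp6 it was at 1.14, 28.9 and 7.35 times. Cspg4 stayed under Bcas1 by 52.4-fold, 8.06-fold and 26.6-fold and under Gpr17 by 6.82-fold, 3.15-fold and 9.24-fold, but it exceeded Enpp6 in rats 35 and 70, at 0.30, 2.24 and 1.11 times.

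Of the 7 pairs compared, 4 had the same sign in all 3 rats: Pdgfra over Enpp6, Gpr17 and Bcas1 over Cspg4, and Olig1 over Olig2. An exact permutation test that flips signs over the rats (two-sided) gave p = 0.25 for each of these, the smallest value that 3 rats allow, and 0.44 after Benjamini-Hochberg adjustment over the 7 pairs. The other 3 pairs had p = 0.5 for Pdgfra with Bcas1 and p = 1 for Pdgfra with Gpr17 and Cspg4 with Enpp6 in the same permutation test. No pair can therefore pass 0.05 in this design. The mean difference of Pdgfra and Gpr17 was 0.24 in log2(FPKM + 1) over 3 rats and -0.65 without rat 35.

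**Figure D4:**
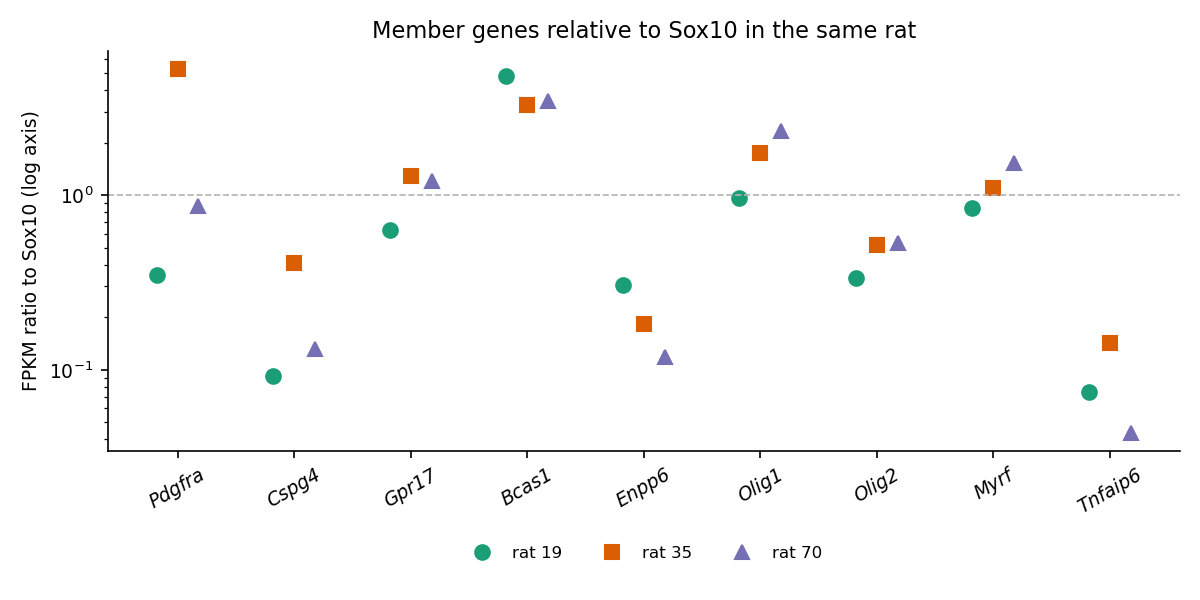
FPKM of each member divided by that of Sox10 in the same rat (log axis), with a dashed line at equal levels. Pdgfra and Cspg4 are highest in rat 35 on this scale as well, and Bcas1 has a 1.47-fold range.

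Set against Sox10 in the same rat, which removes any common scaling of a library, 6 of the other 9 members were more than 2-fold apart, as were 80.9% of all genes above 0 in every rat. Pdgfra was at 0.35, 5.29 and 0.87 times Sox10 (2.17 ± 2.72, SD, n = 3), a 15.2-fold range. Cspg4 was at 0.09, 0.41 and 0.13 times (0.21 ± 0.17), a 4.42-fold range, and rat 35 was again highest.

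The Bcas1 ratio was at 4.85, 3.30 and 3.48 times Sox10 (3.88 ± 0.85, SD, n = 3), a 1.47-fold range. Enpp6 remained highest in rat 19, at 0.31, 0.18 and 0.12 times. Gpr17 reached 0.63, 1.29 and 1.21 times Sox10 and was now lowest in rat 19 and highest in rat 35, the reverse of its FPKM order for that rat. Olig2 (0.34, 0.52 and 0.54 times) and Myrf (0.84, 1.09 and 1.53 times) stayed within 2-fold. Against the sum of Olig1, Olig2 and Sox10, a denominator chosen after the data were seen, Bcas1 was at 2.11, 1.01 and 0.90 times, a 2.33-fold range, so that its closeness holds for Sox10 and not for this sum. On the same denominator Pdgfra was at 0.15, 1.62 and 0.23 times and Gpr17 at 0.27, 0.40 and 0.31 times.

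**Figure D5:**
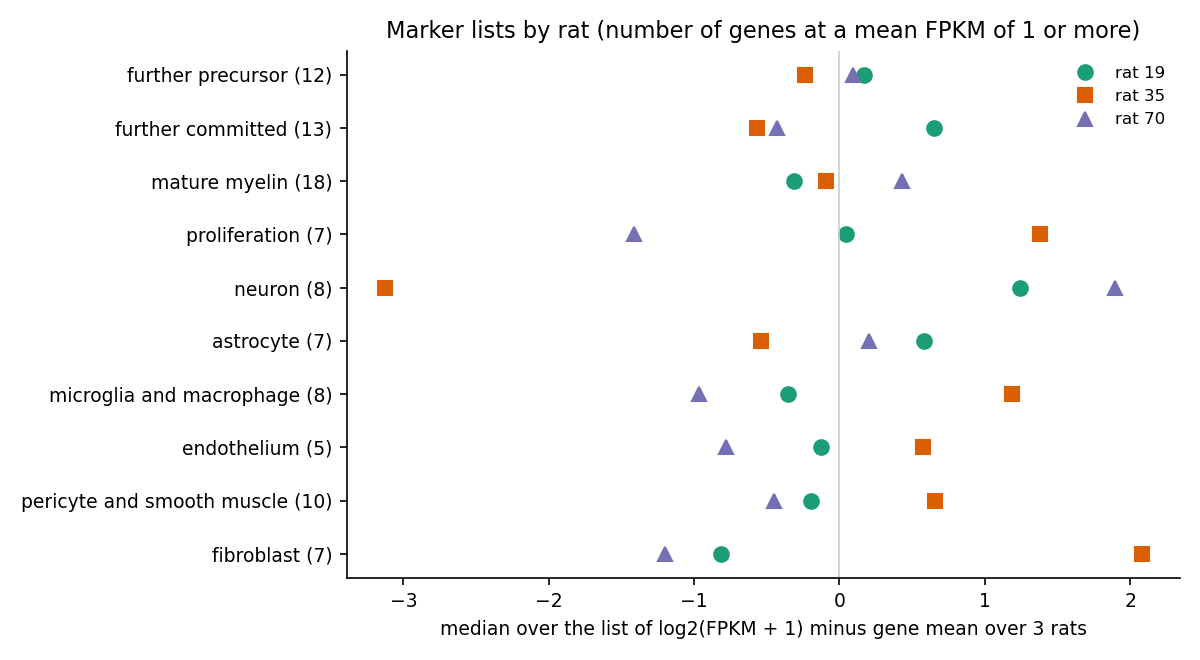
Median over each marker list of log2(FPKM + 1) minus the gene's mean over 3 rats, with the number of genes at a mean FPKM of 1 or more in brackets. Rat 35 is lowest for neurons at -3.13 and highest for fibroblasts at 2.08, and the oligodendrocyte lists lie between these.

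Of the 30 pairs of rats over the 10 members, 25 had 95% Poisson intervals for counting error that did not overlap, as did 69.1% of the pairs over the 13763 genes whose fragments could be recovered in the same way. The 5 that did were rats 19 and 70 for Cspg4 and Olig2, rats 19 and 35 for Gpr17 and Tnfaip6, and rats 35 and 70 for Enpp6. These intervals cover counting error alone, and each rat is a single library.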

How the data were processed

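Motor cortex messenger RNA of 3 rats in 1 group was sequenced. The deposited values are FPKM, which per the labels the authors derived from fragment counts per gene with a normalization step and a Perl script. The submitters' processing notes name HISAT2 2.0.4, StringTie 1.3.0 and Rnor 6.0, with no roles stated. Strand use in counting is not given in any source used here. FPKM was used as deposited, with no count model.

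Differences were taken on log2(FPKM + 1), which understates changes of low genes, over genes averaging at least 1 FPKM. A gene was called apart when its range between rats exceeded 1 on this scale (2-fold). All 10 members passed the minimum. Symbols on several rows were read from the row with the highest mean, and 3 listed genes (Lhfpl3, Itpr2 and Pecam1) were not matched. The named genes were the members, the most abundant and most variable genes of each list, and the 3 genes nearest to Pdgfra, Gpr17 and Olig2, of which some are not reported here. Gene pairs were compared with a two-sided exact permutation test that flips signs over rats. The members and lists were chosen with earlier results of these data known.

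Depth was recovered from 523 genes whose values were whole fragments over their span in every rat. A member's fragments are those of the shortest length giving whole numbers within 0.01 (more for very abundant genes), hence a lower limit, and the 95% exact Poisson intervals are correspondingly wide. Reads carry no molecular identifiers, so intervals cover counting error only. The labels number the animals, which were taken as separate rats. Alternatives were other pseudocounts, minima and scalings and leaving out each rat. Python 3.11.15, numpy 2.4.6, pandas 2.3.3 and scipy 1.17.1 were used, with RefSeq sequences of build GRCr8.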

Additional observations from a re-analysis of the deposited data

How the results depend on the processing

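The number of members more than 2-fold apart was 6 with the values as deposited, after rescaling to a sum of 1000000, after median-of-ratios scaling and at minima of 0.5, 5 and none, and 7 with a pseudocount of 0.1 or without mitochondrial genes. Leaving out 1 rat brought it to 3 without rat 19, 2 without rat 35 and 4 without rat 70. The number apart relative to Sox10 went from 6 to 3 whichever rat was left out. The share of all genes more than 2-fold apart went from 42.5% to 37.0% without rat 19, 11.0% without rat 35 and 26.1% without rat 70. With no minimum it was 20.5%. Without rat 19, the 3 of 10 members were thus a smaller share than that of all genes. The precursor minus committed difference averaged between -1.77 and -0.28 on leaving out 1 rat. Of the pair differences, Pdgfra minus Gpr17 ranged from -0.65 (without rat 35) to 0.77, and Cspg4 minus Enpp6 from -0.73 to 0.57 (without rat 19, against -0.14 with all rats), both with a change of sign. The order of the rats was the same for 9 of 10 members under each of the first pair of scalings, Cspg4 being the exception in rats 19 and 70, and for 10 of 10 without mitochondrial genes. The median gene moved up by 0.80, 0.85 and 0.96 in log2(FPKM + 1) with the common sum of 1000000 and, without mitochondrial genes, by 0.51, 0.28 and 0.40. Among further genes, the number of committed-stage genes highest in rat 19 stayed at 11 of 13 and that of myelin genes highest in rat 70 at 13 of 18 under the 3 scalings, checks added after the data were seen. No paired analysis was possible because there is 1 group.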
